A study of Bos taurus with 9 samples.

Results

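The chromatin of 3 windows of the cattle genome that hold the genes of keratinisation was examined in rumen epithelium before and after weaning. The windows were set by position on the assembly UMD3.1.1. The EDC window (chromosome 3, positions 16500001 to 19500000) lies over the S100 genes and the epidermal differentiation complex (EDC). The type II keratin window lies on chromosome 5, positions 27000001 to 28000000, and the type I keratin window on chromosome 19, positions 41500001 to 43000000. Every called peak whose start lay inside a window was a member, whatever its target, and the rule used no measured value. There were 734 such peaks of 130580 in the 8 lists, of which 364 lay in the EDC window, 186 in the type II keratin window and 184 in the type I keratin window. The windows were 3, 1 and 1.5 Mb long and made up 2.47%, 0.825% and 2.34% of the extent of their chromosomes. They also hold genes of other families.

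ChIP-seq, the sequencing of DNA recovered by chromatin immunoprecipitation, was performed on rumen epithelial tissue of Holstein calves, with 1 library for each of 4 targets at each of 2 time points. The targets were H3K27ac and H3K9ac, the acetylation of histone H3 at lysines 27 and 9 that marks active enhancers and promoters, RNA polymerase II (RNA pol II), the enzyme that transcribes protein-coding genes, and H3K9me3, the trimethylation of lysine 9 found in repressed chromatin. The groups differed only in target and time point by the labels, no agent or allele was given, and the ages and numbers of the calves, and whether tissue of several calves was pooled, were not given in the sources used here. With 1 library per group there was no replicate error and no test of weaning, so the intervals below (95%) allow for counting error and nothing else, and they treat peaks as independent, which neighbours are not. Both H3K9ac libraries were sequenced on lane 1 and the H3K27ac and RNA pol II libraries on lane 2. H3K9me3 was on lane 2 before and lane 1 after weaning, so that a difference of lane cannot be told apart from one of time there. For RNA pol II the labels and the study's text place the shorter of its 2 lists at opposite time points. The labels were followed. Under the other reading the time point of each RNA pol II list below would be exchanged. Its shares with other targets at the same time would then pair lists of different time points.

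Keratins form the intermediate filaments of epithelial cells, and each filament pairs an acidic type I chain with a basic type II chain. In stratified squamous epithelium, to which the lining of the rumen belongs, basal cells make KRT5 with KRT14, and cells that leave the basal layer switch to KRT1 with KRT10 in skin or KRT4 with KRT13 in moist mucosa. The outermost cells then cross-link loricrin, involucrin and small proline-rich proteins of the EDC into the cornified envelope, and S100 proteins and their fused relatives such as cornulin and trichohyalin bind calcium in the same layers.

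The genes that belong to these regions were listed from the RefSeq gene table of another assembly, ARS-UCD2.0, which was used for names and gene order only. There, 28 keratin genes lay on chromosome 5 in 1 cluster. It begins with KRT18, a type I keratin that lies among the type II genes, and its type II partner KRT8, the pair of simple epithelia, runs through KRT4, KRT1, KRT5 and KRT6A, and ends with KRT7 and KRT80. The cluster held 36 protein-coding genes from its first to its last keratin. On chromosome 19, 29 type I keratin genes were spread among 63 protein-coding genes. KRT10 lay in the earlier part of that cluster, 10 genes of keratin-associated proteins (parts of hair and wool) in its middle, and KRT13, KRT15, KRT19, KRT14, KRT16 and KRT17 toward its end. On chromosome 3 there were 14 S100A genes, 8 genes listed for the cornified envelope part of the EDC (LORICRIN, IVL for involucrin, SPRR4, LCE1B and LCE3C among them, and also SMCP, which encodes a sperm mitochondrial protein) and 4 fused S100-type genes (CRNN, RPTN, TCHH and TCHHL1). Because the peaks are on another assembly, no peak was assigned to any of these genes, and the positions below are those of the peaks alone. For the same reason the labelled tissue was not checked here against its marker genes.

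H3K27ac was by far the most abundant target in the windows, with 380 peaks before and 243 after weaning. H3K9ac had 67 peaks before and 14 after, RNA pol II 11 and 2, and H3K9me3 7 and 10. Members of all 4 targets were found in the EDC window at both time points, whereas the type II keratin window held no RNA pol II peak at either time. The map of peaks along the windows shows how unevenly these peaks lay.

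**Figure D1:**
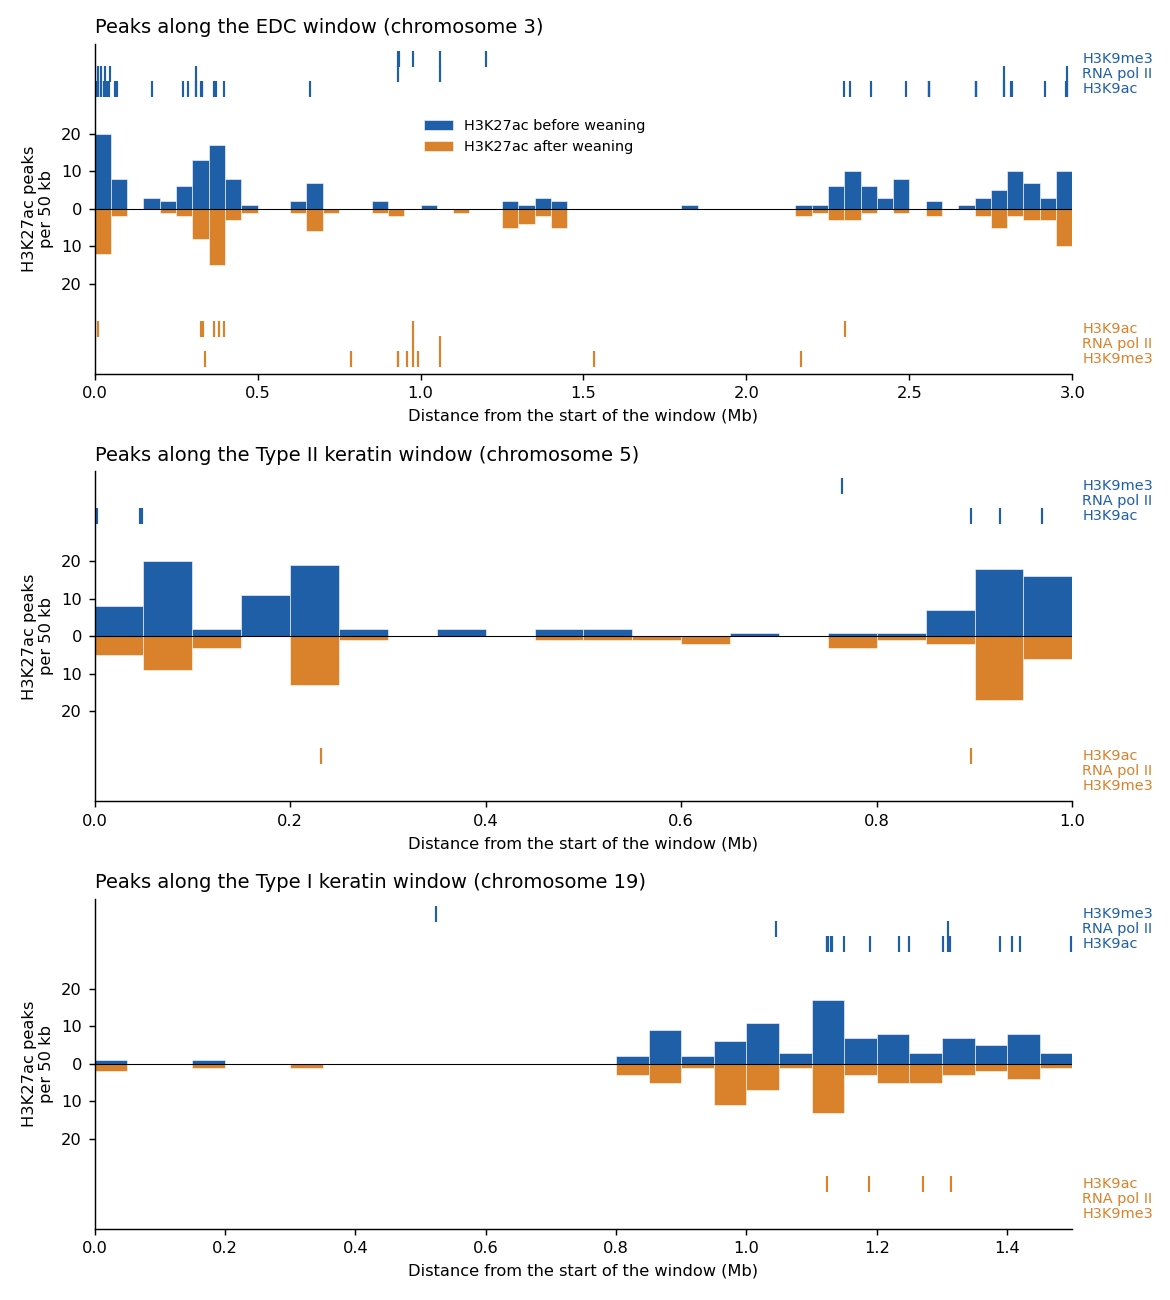
Number of H3K27ac peaks per 50 kb along the 3 windows, before weaning upward in blue and after weaning downward in orange, with a tick for every peak of the other targets; the x axis is the distance from the start of the window in Mb. H3K27ac stood in blocks at the 2 ends of the EDC and type II keratin windows and in the last 750 kb of the type I keratin window, and most H3K9ac ticks lay over the same blocks.

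The first comparison asked whether the windows held more peaks than the rest of their chromosome. In the EDC window the acetylation marks were denser than on the rest of chromosome 3 at both times. Before weaning 175 H3K27ac peaks gave 58.3 per Mb against 31.9 per Mb on the rest of the chromosome, a density ratio of 1.83 (exact binomial interval 1.56 to 2.13). After weaning 110 peaks gave 36.7 per Mb against 14.1 per Mb, a ratio of 2.59 (2.12 to 3.14). H3K9ac had 45 peaks before weaning, 2.08 times (1.51 to 2.81) the density of the rest, and 8 after, 2.53 times (1.07 to 5.13). The EDC window was thus above its chromosome for both marks, and its intervals did not reach 1. With the window shortened by 250 kb at both ends the H3K9ac ratio before weaning was 1.2, so that density lay in good part at the ends. The H3K27ac density was not extreme. Of the 122 bins of 1 Mb on chromosome 3, those overlapping the window included, 19 had more H3K27ac peaks per Mb before weaning and 9 had more after. The flanks of equal length, chosen for comparison after the data were seen, were denser still, with 117 per Mb below and 92.7 per Mb above the window before weaning, and 68.7 and 50 per Mb after.

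The type II keratin window had the highest density of H3K27ac of the 3 windows. It held 112 peaks before weaning in its 1 Mb, against 32.7 per Mb on the rest of chromosome 5, a ratio of 3.43 (2.81 to 4.14). After weaning it held 65 peaks against 14.0 per Mb, a ratio of 4.64 (3.56 to 5.94). Of the 122 bins of 1 Mb on chromosome 5, 5 exceeded it before and 3 after weaning. Its H3K27ac peaks covered 5.02% of the window before weaning, against 1.60% of the rest of the chromosome, and 2.33% against 0.525% after. H3K9ac did not follow, with 6 peaks before weaning (ratio 0.868, 0.318 to 1.90) and 2 after (1.83, 0.220 to 6.76). This density belonged to the ends of the window: with 250 kb taken off at both ends, the ratios for H3K27ac were 0.539 before and 0.830 after weaning, below the rest of the chromosome. The 1 Mb next to the window on its lower side was as dense, with 122 peaks before and 81 after weaning, and the 1 Mb on its upper side held 74 and 37.

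In the type I keratin window H3K27ac stood close to its chromosome before weaning and above it after. The 93 peaks before weaning gave 62 per Mb against 67.0 per Mb on the rest of chromosome 19, a ratio of 0.925 (0.745 to 1.14). The 68 peaks after weaning gave 45.3 per Mb against 27.6 per Mb, a ratio of 1.64 (1.27 to 2.09). The rest of chromosome 19 carried about 2 times the H3K27ac density of the rest of chromosomes 3 and 5, and the same window was 2.13 and 3.79 times as dense as the rest of all autosomes. H3K9ac had 16 peaks before (0.785, 0.447 to 1.28) and 4 after weaning (1.31, 0.352 to 3.44), with both intervals spanning 1. Against the rest of all autosomes these values were 1.87 and 3.18. Its flanks of 1.5 Mb were denser in H3K27ac before weaning (159 per Mb below and 141 per Mb above the window), and after weaning they held 68.7 and 50 per Mb.

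**Figure D2:**
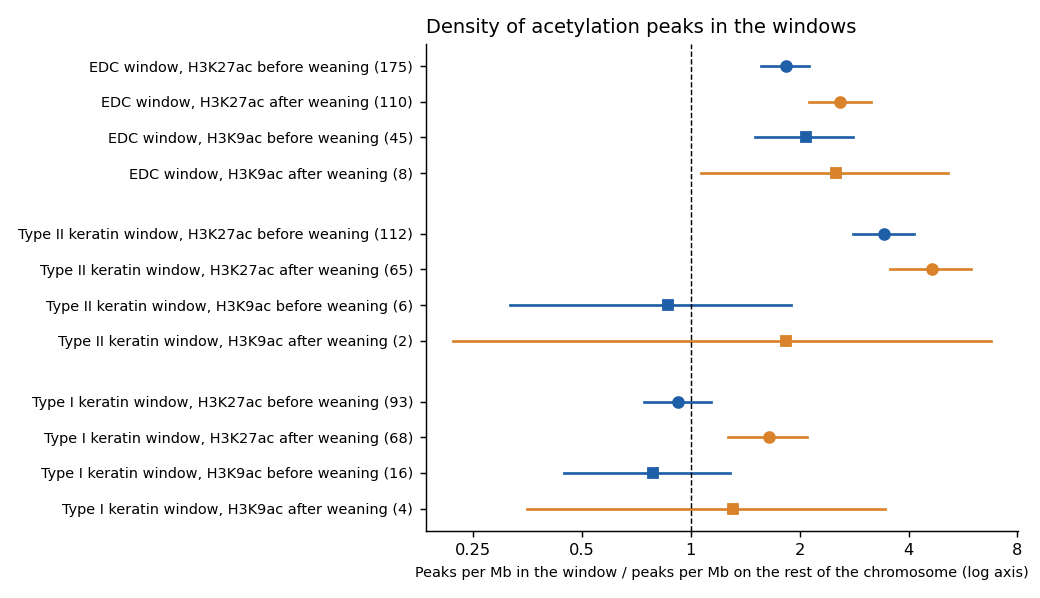
Peaks per Mb in each window divided by peaks per Mb on the rest of its chromosome, on a log axis, with 95% exact binomial intervals that cover counting error only; circles are H3K27ac, squares H3K9ac, blue before and orange after weaning, and the number of window peaks is in brackets. The dashed line marks equal density: both H3K27ac points of the EDC and type II keratin windows lie right of it, and the type I keratin window lies right of it after weaning, at 1.64.

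The second comparison asked how peak numbers after weaning stood against those before. Over all chromosomes H3K27ac had 0.410 times as many peaks after weaning as before, and the ratio was higher in each of the 3 windows. In the EDC window the ratio was 0.629 (exact conditional interval 0.491 to 0.802) against 0.444 (0.419 to 0.470) on the rest of the chromosome. The type II keratin window had 0.580 (0.421 to 0.795) against 0.429 (0.405 to 0.454), where the intervals overlapped. The type I keratin window had the highest value, 0.731 (0.527 to 1.01) against 0.412 (0.389 to 0.436). Among bins of 1 Mb with at least 20 H3K27ac peaks before weaning, 10 of 76 on chromosome 3, 9 of 66 on chromosome 5 and 2 of 50 on chromosome 19 had a higher ratio than the window. These bins cover whole chromosomes, the windows included, and the highest ratio on chromosome 3 (1.4) was inside the EDC window. The flanks of the EDC window were near it (0.589 and 0.540), as were those of the type II keratin window (0.664 and 0.5), whereas those of the type I keratin window were at 0.431 and 0.354. Each window stood above the rest of its chromosome also with merged peaks, with wider peaks alone, by covered length and with shortened windows. No interval was computed for these settings, and the shortened type II keratin window held only 9 early and 6 late peaks.

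H3K9ac had far fewer peaks after weaning in the windows, as on the rest of the chromosomes. Its ratio was 0.178 (0.0724 to 0.381) in the EDC window, 0.333 (0.0329 to 1.86) in the type II keratin window and 0.25 (0.0608 to 0.775) in the type I keratin window, against 0.147, 0.158 and 0.150 on the rest of the chromosomes. Every interval of a window included the value of the rest, so no difference was detectable at these counts. RNA pol II density in the EDC window was 3.01 times (1.34 to 5.91) that of the rest before weaning and 7.18 times (0.773 to 32.9) after. The early value was 1.15 with the window shortened at both ends and 1.27 with peaks wider than the median, and no late peak was that wide. By the labels RNA pol II had 9 peaks before and 2 after weaning in the EDC window and 2 and 0 in the type I keratin window, and the direction would turn if its lists were exchanged. H3K9me3 in the EDC window was the exception to the decline in counts, with 5 peaks before and 10 after weaning. Its ratio of 2 (0.623 to 7.46, an interval that includes 1) stood against 3 (2.14 to 4.27) on the rest of chromosome 3. Each keratin window had 1 H3K9me3 peak before weaning and 0 after, and the lane of this target differed between the time points.

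**Figure D3:**
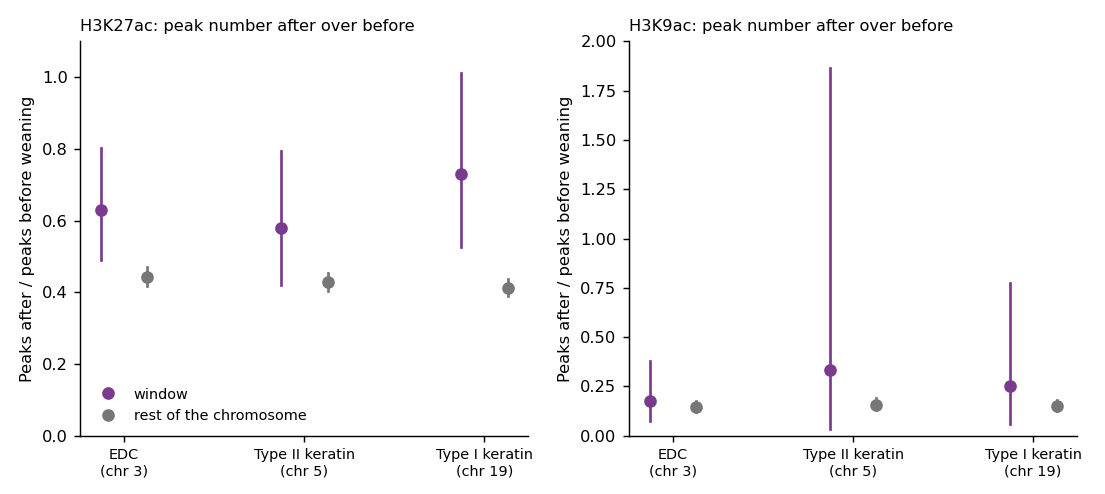
Number of peaks after weaning divided by the number before, for H3K27ac (left) and H3K9ac (right), in each window (purple) and on the rest of its chromosome (grey), with 95% exact conditional intervals for 2 counts. The H3K27ac ratios of the windows lie between 0.580 and 0.731 and those of the rest between 0.412 and 0.444, while the H3K9ac intervals of the windows include the grey points.

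The ratio for a whole window hid parts with unlike counts, which bins of 250 kb, a length chosen after the data were seen, set apart. In the EDC window the first 500 kb held 78 H3K27ac peaks before and 44 after weaning, and the last 750 kb held 74 and 35. The 1750 kb between them (positions 17000001 to 18750000) held 23 and 31, or 13.1 and 17.7 per Mb. The flanking blocks thus carried most of the peaks and had fewer after weaning, whereas the count in the sparse middle was higher after. The counts of the middle are small and no interval was computed for them, so an increase there was not established.

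Most of that surplus came from 1 bin, positions 17750001 to 18000000 of chromosome 3, with 8 H3K27ac peaks before weaning and 16 after. Of the 8 early peaks (before weaning) 7 touched a late peak (after weaning), and 8 of the 16 late peaks touched none before weaning. The late peaks ran from 17774700 to 17912759, and 5 of them crowded the last stretch from 17910432 on. On the rest of chromosome 3, 229 bins held at least 5 H3K27ac peaks before weaning. Of these, 10 had more peaks after weaning and 2 had at least 2 times as many. The bin held no peak of H3K9ac, RNA pol II or H3K9me3 at either time. Beyond it lay the longest stretch of the window without any acetylation peak, 390.8 kb from 17912823 to 18303652, although 45 of 4374 gaps on chromosome 3 were longer.

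The opposite was seen at the start of the next acetylated block. Positions 18750001 to 19000000 held 33 H3K27ac peaks before and 8 after weaning. This was the lowest ratio (0.242) among the bins of the 3 windows with at least 20 early peaks. Of the 33 early peaks 27 touched no late one. H3K9ac had 4 peaks there before and 1 after. Such a loss was not particular to the window. On the rest of chromosome 3 the bin from 23250001 went from 24 H3K27ac peaks to 3, and that from 35500001 from 23 to 1. Over all H3K27ac peaks before weaning only 27.9% touched a late one.

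In the type II keratin window the 2 outer bins held 103 H3K27ac peaks before and 59 after weaning (206 and 118 per Mb), and the central 500 kb held 9 and 6 (18 and 12 per Mb). The central bins had no peak of any other target. In single bins the counts before and after weaning were 60 and 30, 6 and 2, 3 and 4, and 43 and 29, in order of position. The contrast between ends and centre was therefore present at both times.

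In the type I keratin window the first 750 kb were close to empty, with 2 H3K27ac peaks before weaning, 4 after and 1 H3K9me3 peak before weaning. A stretch of 502.4 kb, from 41817134 to 42319564, had no acetylation peak at either time, and 7 of 4661 such gaps on chromosome 19 were longer. The last 750 kb held 91 H3K27ac peaks before and 64 after weaning and every H3K9ac and RNA pol II peak of the window. Within it the bin from 42250001 to 42500000 did not thin out, with 19 peaks before and 20 after weaning, whereas the next bins went from 46 to 29 and from 26 to 15. Of the 20 late peaks in that first bin 12 touched no early peak, against 4 of 29 and 3 of 15 in the next bins.

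**Figure D4:**
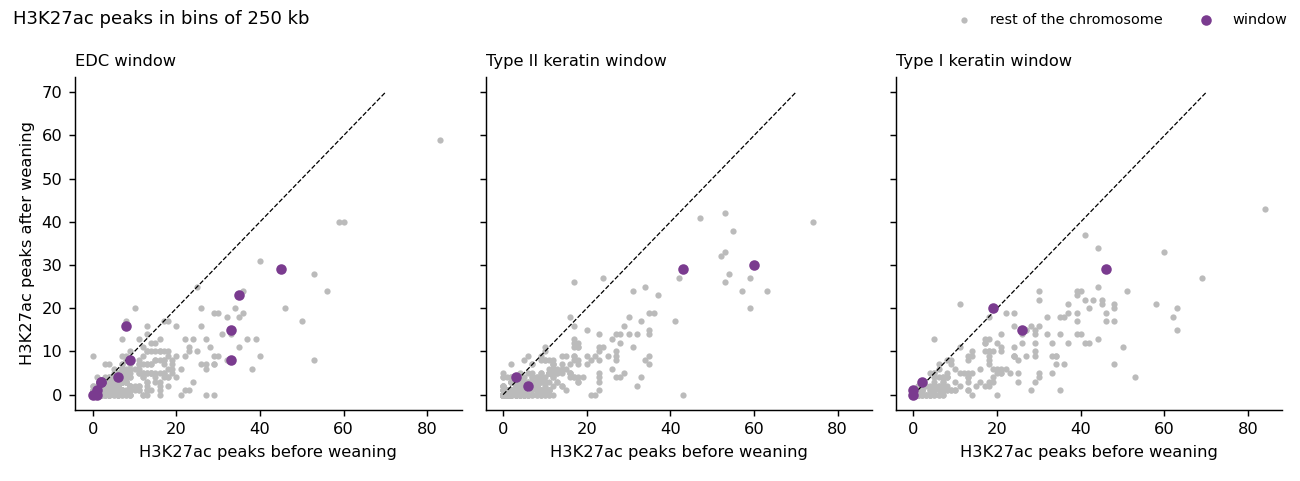
H3K27ac peaks after weaning (y axis) against before weaning (x axis) in bins of 250 kb, for the bins of each window (purple) and of the rest of its chromosome (grey); the dashed line marks equal numbers. Most bins lie under the line, among them the windows' bins with over 20 early peaks, while the EDC bin at 8 and 16 peaks and the type I keratin bin at 19 and 20 lie above it.

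H3K27ac peaks were also stitched into clusters wherever neighbours lay within 12.5 kb, again after the data were seen. Before weaning the largest cluster of the EDC window held 39 peaks in 141.4 kb (16809897 to 16951257), and 2 of 1121 clusters on chromosome 3 held more. Inside those bounds 27 peaks were called after weaning, and 24 of them touched an early peak. A further cluster of 20 peaks lay at 16505801 to 16548139, where all 12 late peaks touched early ones. Bounds set by early peaks favour fewer late ones, and bounds set by late peaks do the reverse: the largest late cluster (16866010 to 16900453), inside the first block, held 14 peaks before and 16 after weaning, that at 16506977 to 16546980 held 17 and 12, and that at 19478685 to 19488566 held 9 and 10.

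The type II keratin window held clusters of 32 peaks (27967133 to 28028284, running past the end of the window), 26 peaks (27036469 to 27086732) and 24 peaks (27194751 to 27259266) before weaning, and each of these stretches held 14 peaks after. After weaning its largest cluster had 19 peaks at 27896819 to 27931647, where 13 had been called before weaning, and 4 of 672 clusters on chromosome 5 held more. Of those 19 late peaks 14 touched an early peak. Its other late clusters held 15 before and 14 after weaning (27230916 to 27259608) and 10 and 13 (27045920 to 27067627).

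In the type I keratin window the largest late cluster also held fewer early peaks. At 42486200 to 42510522 there were 9 peaks before and 15 after weaning, and 4 of 635 on chromosome 19 held more. Of the 15 late peaks 9 touched no early one. The other late clusters held 16 and 13 (42620328 to 42649925) and 4 and 5 (42354598 to 42369732). The largest cluster before weaning, 21 peaks at 42619906 to 42666013, held 14 after weaning, of which 13 touched an early peak. The other early clusters held 9 before and 5 after weaning (42885110 to 42920926) and 9 and 12 (42486250 to 42507145).

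The third comparison followed single peaks through weaning, counting a peak as kept where it shared at least 1 bp with a peak of the same mark at the other time. Of all H3K27ac peaks before weaning 27.9% were kept. In the windows 71 of 175 (40.6%, Wilson interval 33.6 to 48.0), 42 of 112 (37.5%, 29.1 to 46.7) and 43 of 93 (46.2%, 36.5 to 56.3) were kept in the EDC, type II and type I keratin windows, against 30.2%, 29.8% and 29.4% on the rest of their chromosomes. The type I keratin window stood farthest above its chromosome, and in the type II keratin window the interval overlapped that of the rest (28.4 to 31.2). With peaks wider than the median alone the shares were 26.8%, 21.8% and 32.7% against 28.1%, 27.8% and 23.7%, so under that setting the share was above the rest in the type I keratin window and below it in the others.

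Seen from the other side, 76.9% of all H3K27ac peaks after weaning touched one before weaning. The windows had 86 of 110 (78.2%), 47 of 65 (72.3%) and 47 of 68 (69.1%, 57.4 to 78.8), against 78.4%, 79.3% and 82.0% (80.2 to 83.8) on the rest of the chromosomes. Only in the type I keratin window did the intervals part, with a larger share of late peaks at places without an early one. That direction depended on the definition: with a reciprocal overlap of 50% the type I keratin window was above the rest (42.6% against 36.4%), and the type II keratin window as well (38.5% against 37.4%). Among wider peaks all 3 windows stood below their chromosomes, at 63.8%, 52.0% and 62.1% against 84.1%, 86.3% and 85.8%. After merging all lists into regions, those with H3K27ac after weaning only made up 11.4%, 13.8% and 18.3% of the regions in the windows, against 8.27%, 7.74% and 6.56% on the rest.

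In the windows kept peaks were wider than lost ones at the median, and the same was not measured outside them. Median widths of kept and lost H3K27ac peaks were 459 and 303 bp in the EDC window, 398.5 and 291 bp in the type II keratin window and 519 and 300.5 bp in the type I keratin window. Peaks seen only after weaning had medians of 237, 228 and 287 bp (n = 24, 18 and 21). A wider peak has more bases with which to touch another, and the part of width in being kept was not tested. Over all H3K27ac peaks of a window, median widths were 355, 323.5 and 387 bp before and 300.5, 299 and 304 bp after weaning, near those of the rest of the chromosomes (348, 353 and 369 bp before; 298, 300 and 294.5 bp after).

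Few H3K9ac peaks were kept anywhere, 6.60% of all before weaning. In the windows 4 of 45, 1 of 6 and 1 of 16 were kept. Of the H3K9ac peaks after weaning 44.3% of all, and 4 of 8, 1 of 2 and 1 of 4 in the windows, touched an early one. These shares were near the background and rest on few peaks.

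The marks were next compared with each other at the same time point. Most H3K9ac peaks touched H3K27ac before weaning, 90.0% over all and 43 of 45, 6 of 6 and 16 of 16 in the windows. With a reciprocal overlap of 50% the shares in the windows were 33.3%, 33.3% and 31.25%. After weaning the share was 69.3% over all, and 7 of 8, 2 of 2 and 1 of 4 in the windows. The single peak in the type I keratin window that did so lay at 42624013 to 42624363, and the other 3 (from 42688004, 42770274 and 42813479) each touched an H3K27ac peak before weaning instead.

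The reverse share separated the type II keratin window. Of all H3K27ac peaks before weaning 15.3% touched H3K9ac. In the EDC window 34 of 175 did (19.4%, 14.2 to 25.9, against 18.0% on the rest) and in the type I keratin window 16 of 93 (17.2%, 10.9 to 26.1, against 16.0%). In the type II keratin window only 6 of 112 did (5.36%, 2.48 to 11.2), against 16.5% (15.4 to 17.7) on the rest of chromosome 5. Its H3K27ac density was thus high while H3K9ac was as sparse as on the rest of its chromosome. After weaning 4.83% of all H3K27ac peaks touched H3K9ac, and 7 of 110, 2 of 65 and 1 of 68 in the windows.

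RNA pol II before weaning, as labelled, mostly touched acetylated sites. Over the series 76.3% of its peaks touched H3K27ac and 48.7% touched H3K9ac. In the EDC window 7 of 9 touched H3K27ac and 4 of 9 H3K9ac. On the rest of chromosome 3 the shares were 94.1% (111 of 118) and 65.3% (77 of 118). In the type I keratin window 2 of 2 and 1 of 2 did so, against 77.3% and 51.5% on the rest of chromosome 19. If the RNA pol II lists were exchanged, these shares would pair lists of different time points. With a reciprocal overlap of 50% none of the 9 in the EDC window met H3K27ac. Those on all 3 active targets in the EDC window started at 16511093, 16530740, 16810975 and 19484427, the last being the widest (455 bp). In the type I keratin window the peak at 42809386 to 42809669 lay on both acetylation marks, and that at 42545761 to 42546024 on H3K27ac alone. None of these 6 sites had RNA pol II in the list labelled after weaning, whereas 5 of them had H3K27ac then. Over the series 19.3% of RNA pol II peaks before weaning were kept, and 52.6% of those after weaning touched an early one. The EDC window had 1 of 9 and 1 of 2, against 2 of 118 (1.69%) and 2 of 11 (18.2%) on the rest of chromosome 3.

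The 2 RNA pol II peaks of the EDC window that touched no acetylation peak before weaning lay in a stretch with H3K9me3. H3K9me3 before weaning had 5 peaks in the EDC window, all between 17429538 and 17699898, a density 4.20 times (1.30 to 10.5) that of the rest of chromosome 3. After weaning 10 peaks gave 2.80 times (1.31 to 5.30), or 5.38 times with peaks wider than the median, and 6 of these lay between 17429564 and 17561057. The others stood singly, starting at 16838850, 17285179, 18031042 and 18666046. Of the peaks before weaning 3 of 5 were kept (53.6% over all H3K9me3 peaks and 29.8%, 14 of 47, on the rest of chromosome 3). Of those after weaning 3 of 10 touched an early one (30.0% over all and 9.93%, 14 of 141, on the rest of chromosome 3). The counts of the window are too few to set it apart.

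At 17560749 RNA pol II and H3K9me3 were called at both times, and all 4 peaks began at that same position, with ends from 17560956 to 17561057. At 17477738 H3K9me3 was called at both times (470 and 397 bp), and after weaning RNA pol II (17477751 to 17477979) and H3K9ac (17477763 to 17477973) were called inside it. The sites at 17477738 and 17560749 held the only RNA pol II peaks of the 3 windows after weaning. Another site, at 17431097, had an RNA pol II peak before weaning, and after weaning an H3K9me3 peak that began at the same base and an H3K27ac peak. Over the series 86.3% of RNA pol II peaks after weaning touched H3K9me3, so the EDC window (2 of 2) was near the background. If the RNA pol II lists were exchanged, this share would pair lists of different time points.

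In the whole EDC window 2 of 110 H3K27ac peaks after weaning touched H3K9me3 and 0 of 175 before. Over all lists the shares were 0.821% after and 0.0741% before weaning, and on the rest of chromosome 3 2 of 1675 and 1 of 3775 peaks. The keratin windows had 1 H3K9me3 peak each before weaning, at 27764274 to 27764473 on chromosome 5 and at 42023222 to 42023558 on chromosome 19, neither of which touched any other peak, and none after. The density ratios before weaning were 1.47 (0.0367 to 8.40) and 0.362 (0.00910 to 2.06), so a difference from the rest was not detectable. On the rest of these chromosomes H3K9me3 after weaning had 0.932 and 2.34 peaks per Mb, and the density ratios of 0 had upper bounds of 4.02 and 1.07, so none was detectable then either.

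**Figure D5:**
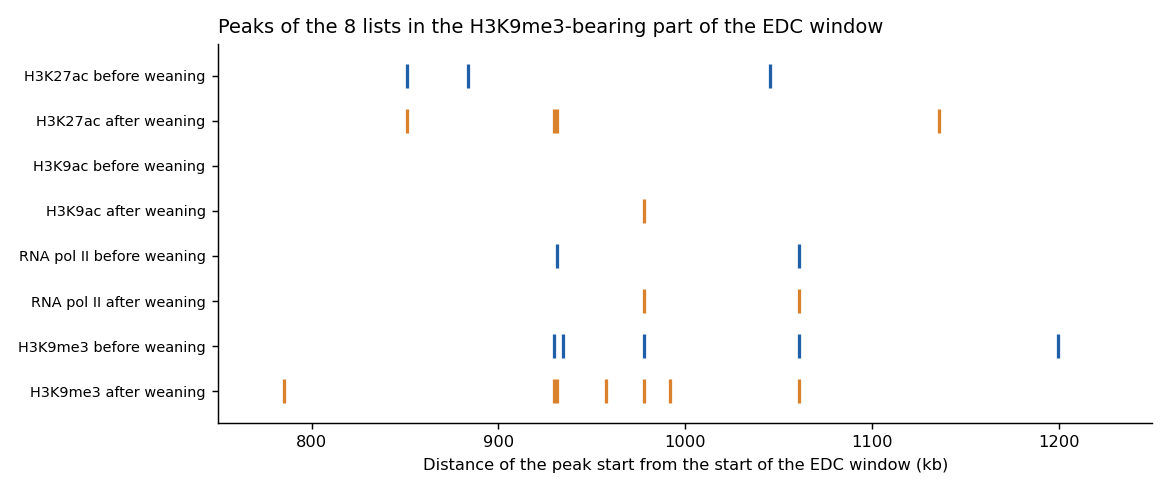
Peaks of the 8 lists in the H3K9me3-bearing part of the EDC window, each drawn as a tick at its start, with the distance from the start of the window in kb on the x axis and 1 row for each target and time point (blue before, orange after weaning). H3K9me3 stood in both rows at 3 places, RNA pol II stood at or beside them, and the row of H3K9ac before weaning was empty.

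Among single regions, the one with peaks in the most libraries was at 16510612 to 16512324 on chromosome 3. It was called in 5 of 8 lists, namely both H3K9ac, both H3K27ac and RNA pol II before weaning, and it held the widest H3K9ac peak of the windows (1215 bp). The region at 16829018 to 16831663 was a single H3K27ac peak before weaning of 2646 bp, the widest of the members, with both acetylation marks at both times. The same 4 lists met at 16895393 to 16897227, where the widest late H3K27ac peak of the EDC window lay (1137 bp).

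In the type II keratin window the region at 27896738 to 27897665 (928 bp) carried both acetylation marks at both times, and no other region there was called in more than 3 lists. The widest H3K27ac peak lay close by at 27924898 to 27927522 (2625 bp), and after weaning its place was taken by several peaks, the widest of 1001 bp. In the type I keratin window the region at 42623953 to 42624465 had both acetylation marks at both times. The region at 42808782 to 42810220 had RNA pol II before weaning with both acetylation marks, and H3K27ac alone after. The widest H3K27ac peak there (41509958 to 41511859, 1902 bp) was 1 of the 2 early H3K27ac peaks in the sparse first 750 kb and was kept as narrower peaks of 261 and 238 bp.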

How the data were processed

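ChIP-seq libraries of rumen epithelial tissue from Holstein calves were compared before and after weaning, with groups taken from the labels. Reads of 75 nt that failed the filter of the sequencer were removed by the authors. The others were aligned with BWA to UMD3.1.1, unique alignments with fewer than 2 mismatches were kept, and peaks were called with MACS2 at default settings against 1 shared input. The submitters' processing notes also name Trim Galore 0.4.1. The deposited values are chromosome, start and end in bp, with no height, score or read depth, so that the number of peaks cannot be separated from depth and enrichment. The lowest end minus start was 199, and positions were read as 1-based with both ends included (lowest width 200 bp). If starts count from 0, each lies 1 bp further on.

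Members were peaks with a start inside a window, and these windows, the lists and the tallies were chosen with earlier results of these data known. Chromosome length was taken as the highest end of any peak there. Peaks sharing at least 1 bp were said to touch. Named regions were the widest peak of each list in each window and the 3 merged regions per window with peaks in the most libraries. Clusters, bins of 250 kb, bins of 1 Mb and flanks were added after seeing the data. Gene names came from the RefSeq table of ARS-UCD2.0, which was not used for positions, and no sequence was read. Density ratios have Clopper-Pearson, shares Wilson and ratios of counts exact conditional intervals. Density and overlap functions were tested on simulated data. Python 3.11.15, pandas 2.3.3, SciPy 1.17.1 and matplotlib 3.10.9 were used.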

Additional observations from a re-analysis of the deposited data

How the results depend on the processing

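Of the values recomputed under the alternatives, 227 moved by less than their interval, 61 moved by more and 2, whose intervals had excluded 1, came to lie on its other side. Values whose intervals had included 1 are among the others also where they crossed it. The 2 were the H3K27ac densities of the type II keratin window, which with the windows shortened by 250 kb at both ends were 0.539 (before weaning) and 0.830 (after) times the rest of chromosome 5. With that setting no H3K9ac peak at either time and no H3K9me3 peak before weaning was left there (density 0), and the densities in the EDC window were 1.32 and 2.00 for H3K27ac before and after weaning, 1.2 for H3K9ac before and 1.15 for RNA pol II before. Against the rest of all autosomes the type I keratin window had densities of 1.87 for H3K9ac before weaning and 2.13 and 3.79 for H3K27ac before and after.

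The ratio of H3K27ac peaks after to before weaning ranged over the alternatives from 0.446 to 0.755 in the EDC window, 0.455 to 0.667 in the type II keratin window and 0.527 to 0.818 in the type I keratin window, and in each alternative it was above that of the rest of the chromosome. The EDC value was 0.485 with peaks wider than the median and 0.446 by covered length. With wider peaks the RNA pol II density in the EDC window was 1.27 before and 0 after weaning (ratio 0), that of H3K9me3 after weaning was 5.38, and that of H3K9me3 before weaning in the type II keratin window was 0.

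Shares of touching peaks depend on what counts as touching. In the EDC, type II and type I keratin windows in turn, kept H3K27ac peaks made up 20.6%, 22.3% and 31.2% with a reciprocal overlap of 50%, 69.7%, 58.9% and 73.1% with peaks extended by 1 kb, and 26.8%, 21.8% and 32.7% among wider peaks. Among wider peaks the EDC and type II windows changed side against the rest of their chromosomes (28.1% and 27.8%). Late H3K27ac peaks that touched an early one made up 32.7%, 38.5% and 42.6% with reciprocal overlap and 90.0%, 86.2% and 82.4% with extension, and 63.8% and 52.0% in the EDC and type II windows among wider peaks. With reciprocal overlap the type II and type I windows changed side against the rest (37.4% and 36.4%), and with extension the EDC window was at 90.0% against 87.9%. H3K27ac peaks before weaning touched H3K9ac in 8.57%, 1.79% and 5.38% with reciprocal overlap and 44.0%, 14.3% and 37.6% with extension, so the type II keratin window had the lowest share in both. H3K9ac before weaning touched H3K27ac in 33.3%, 33.3% and 31.25% with reciprocal overlap. For the EDC window this share was 100% with extension and among wider peaks, and 12.5% and 100% for H3K9ac after weaning with reciprocal overlap and among wider peaks. Late H3K27ac touched H3K9ac there in 0.909% (reciprocal) and 12.7% (extension), and in 0% among wider peaks of the type II window. RNA pol II of the EDC window before weaning touched H3K27ac in 0% (reciprocal) and 100% (wider peaks) and H3K9ac in 77.8% (extension), and 0% were kept among wider peaks. In the type I window 31.25% of H3K9ac peaks were kept with extension. Merging peaks within 1 kb gave median widths of 361 bp for H3K9ac before weaning and 395 and 377 bp for H3K27ac before and after in the EDC window, 527 and 562 bp for H3K27ac in the type II window and 587 bp for H3K27ac before weaning in the type I window. The cause of these moves was not tested beyond the settings themselves.

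Peaks at gene starts were not counted, since the gene table is on another assembly, and the alternatives planned for them were not run. The windows hold few peaks of RNA pol II, H3K9me3 and late H3K9ac, so their intervals are wide and most differences in these are not detectable here, other than the EDC densities whose intervals lie above 1. All lists share 1 input, and regions over-represented in the input or in repeats were not examined. No paired analysis was possible because each group holds 1 library.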

Other observations

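Regions made by merging all 8 lists were called in at most 5 libraries in the EDC window (1 of 210 regions), 4 in the type II keratin window (1 of 130) and 4 in the type I keratin window (2 of 115). The rest of chromosome 3 also reached at most 5 libraries, in 12 of 4342 regions (0.276%, against 0.476% in the EDC window). On the rest of chromosome 5, 114 of 4473 regions were called in 4 libraries (2.55%, against 0.769% in the window) and 1 in all 8. On the rest of chromosome 19, 109 of 4683 were called in 4 (2.33%, against 1.74%) and 5 in all 8. Regions in the EDC window with RNA pol II and H3K9me3, at either time, numbered 3 of 210 (1.43%), against 6 of 4342 (0.138%) on the rest of chromosome 3, and the 3 regions lay between 17431097 and 17561057.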
